A study of Mus musculus with 12 samples.

Results

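Described here are the 4 mouse fibroblast growth factor (FGF) receptor genes Fgfr1, Fgfr2, Fgfr3 and Fgfr4 together with 5 genes for inhibitors of the signalling they start, the Sprouty genes Spry1, Spry2 and Spry4 and the Sprouty-related genes Spred1 and Spred2. The genes were chosen with earlier results of these data known. Their probe sets were then taken by the platform annotation alone, as all those assigned to exactly 1 of these genes. They number 21 of the 20380 probe sets with a single gene, for 9 of 12393 genes. Of the 21, 16 passed the signal filter and were tested, 8 of 11 for the receptors, 4 of 5 for the Sprouty genes and 4 of 5 for the Spred genes.

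FGF receptors are receptor tyrosine kinases that bind FGF together with heparan sulphate chains of cell surface proteoglycans, and they activate the Ras and ERK kinase cascade through docking and adaptor proteins. Sprouty and Spred proteins inhibit that cascade, and several of them are themselves transcribed in response to it, as parts of a negative feedback loop. In skeletal muscle, FGF drives the proliferation of satellite cells, the resident stem cells of the muscle fibre, Fgfr1 and Fgfr4 are the receptors known from these cells in the mouse, and Spry1 is known from the mouse for its role in the return of satellite cells to quiescence.

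Gene expression was measured on Affymetrix Mouse 430A arrays in cells sorted from hind limb muscles of C57BL/6J mice aged 8 to 12 weeks, with 4 arrays per group. Activated satellite cells (ASC) were cells that bound the antibody SM/C-2.6 and were then kept for 4 days in DMEM with 20% fetal calf serum and 2.5 ng/ml basic FGF, the protein encoded by Fgf2, and over 99% of them were MyoD-positive. Quiescent satellite cells (QSC) bound the same antibody, were taken directly from the sort, and were over 97% Pax7-positive. Non-myogenic cells (NMC) were negative both for SM/C-2.6 and for CD45, a leukocyte antigen, were likewise taken directly from the sort, and under 1% of them were myogenic. Exogenous FGF was thus given to the ASC group only, and activation cannot be told apart from culture, serum, FGF or the time since sorting. Whether a group's 4 arrays stand for separate animals or cultures is not in the labels, and the p-values therefore describe the spread between samples that may be technical repeats.

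Both labelling kits named in the labels were used in every group. The small-sample kit was used for ASC arrays 1 and 2, QSC arrays 1 and 2 and NMC array 1, and the two-cycle kit for the others. Deposited signals lay at different levels under the kits, with 2% trimmed means of 323 to 502 on the 5 small-sample arrays and 160 to 236 on the 7 two-cycle arrays, so each array was scaled to a trimmed mean of 235 and the kit was a term of every fit. The Gapdh controls gave a ratio of 3' to 5' signal, a measure that goes up as RNA degrades, of 1.75 ± 0.411 in ASC, 4.02 ± 0.969 in QSC and 3.87 ± 0.916 in NMC (SD, n = 4 each). Marker genes separated the groups by their labels. Summed signals of 8 satellite cell markers, Pax7 and Calcr among them, were 2796 to 4026 in ASC, 16520 to 21116 in QSC and 1014 to 1598 in NMC, and those of 5 myoblast and cell cycle markers were 9461 to 13230 in ASC, 3022 to 4200.1 in QSC and 365 to 729.6 in NMC. Of the 8 satellite cell markers 5 were higher in ASC than in NMC and 1, Chodl, was lower (7.49 against 520). Calcr (9.18 against 9.22) and Sdc4 were not called between ASC and NMC. Within ASC, Myog stood at 4532 and 1775 on the small-sample arrays and at 444 and 369 on the two-cycle arrays. Myod1 ran the other way, at 3841 and 3305 against 5541 and 5829. In ASC values given per kit, kit and cell state therefore cannot be told apart. All 11 tested endothelial markers were lower in ASC than in QSC and lower in QSC than in NMC, with sums of 104 to 152 in ASC, 3768 to 5759 in QSC and 15796 to 18510 in NMC, and Tie1, Sox17 and Pecam1 averaged 0.8, 3.0 and 5.0 in ASC. The 8 of 9 fibroblast markers that were tested ran the same way, with sums of 1469 to 1927 in ASC, 14251 to 35768 in QSC and 44631 to 90781 in NMC, and Pdgfra averaged 3.7 in ASC. The part of these other cells in the results below was not tested. In such bulk samples, fewer cells of a type and less RNA per cell cannot be told apart.

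Transcripts of the FGF receptors and of the Sprouty and Spred inhibitors were lower in activated than in quiescent satellite cells nearly throughout. Of the 16 tested probe sets 15, for 8 of the 9 genes, were lower in ASC than in QSC (limma, Benjamini-Hochberg adjusted p under 0.05), and over all 12072 probe sets tested 37.6% were. None, 0 of 16, was higher, also at an unadjusted p under 0.05, against 30.7% of all probe sets. The exception was Spred2, whose log2 difference was -0.33 with an adjusted p of 0.0665. A fall of at least 2-fold was found for 11 probe sets, of Fgfr1, Fgfr3, Fgfr4, Spry1, Spry4 and Spred1, against 21.2% of all. In 13 sets the 4 ASC arrays all lay below the 4 QSC arrays, against 27.6% of all. The signal filter takes the mean of all 12 arrays. The tested sets of Fgfr2, Fgfr3 and Spry4, Spry2 1421656_at and Fgfr4 1427776_a_at averaged 15.8 to 39.5 in ASC, below the filter level. They passed through their QSC or NMC signals, so their place among the lower sets is not independent of the filter. The background shares were taken under the same filter. The median log2 difference of the 16 was -1.76, and that of all probe sets was -0.12. Unscaled values gave 13 lower, quantile normalization 15 and median centring 12, and under median centring the differences of Spred2 and of the Spred1 probe set 1423161_s_at turned to 0.12 and 0.01. The median over all probe sets was itself 0.17, 0.03 and 0.32 under these 3 scalings.

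Set against the non-myogenic cells, the quiescent cells had higher signals for 10 of the 16 probe sets, which belong to Fgfr1, Fgfr4, Spry1, Spry4 and Spred1, and 27.4% of all probe sets were higher. None, 0 of 16, was lower, also at an unadjusted p under 0.05, where 24% of all probe sets were, although unscaled values gave 1, that of Fgfr2. At least 2-fold higher were 7, against 9.4% of all, namely the 4 tested sets of Fgfr4, the 2 of Fgfr1 and that of Spry1. For 8 the QSC arrays all lay above the NMC arrays, against 19.1% of all, namely these 7 and Spred1 1423160_at. Sets of the same gene are not independent, so these counts stand for fewer genes. In NMC the tested Fgfr4 sets averaged 8.18 to 37.0, likewise below the filter level. The median was 0.90 for the 16 and 0.08 for all probe sets. The same 10 probe sets were higher in QSC than in both other groups, as were 12.9% of all probe sets. The QSC arrays stand in both of these comparisons.

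**Figure D1:**
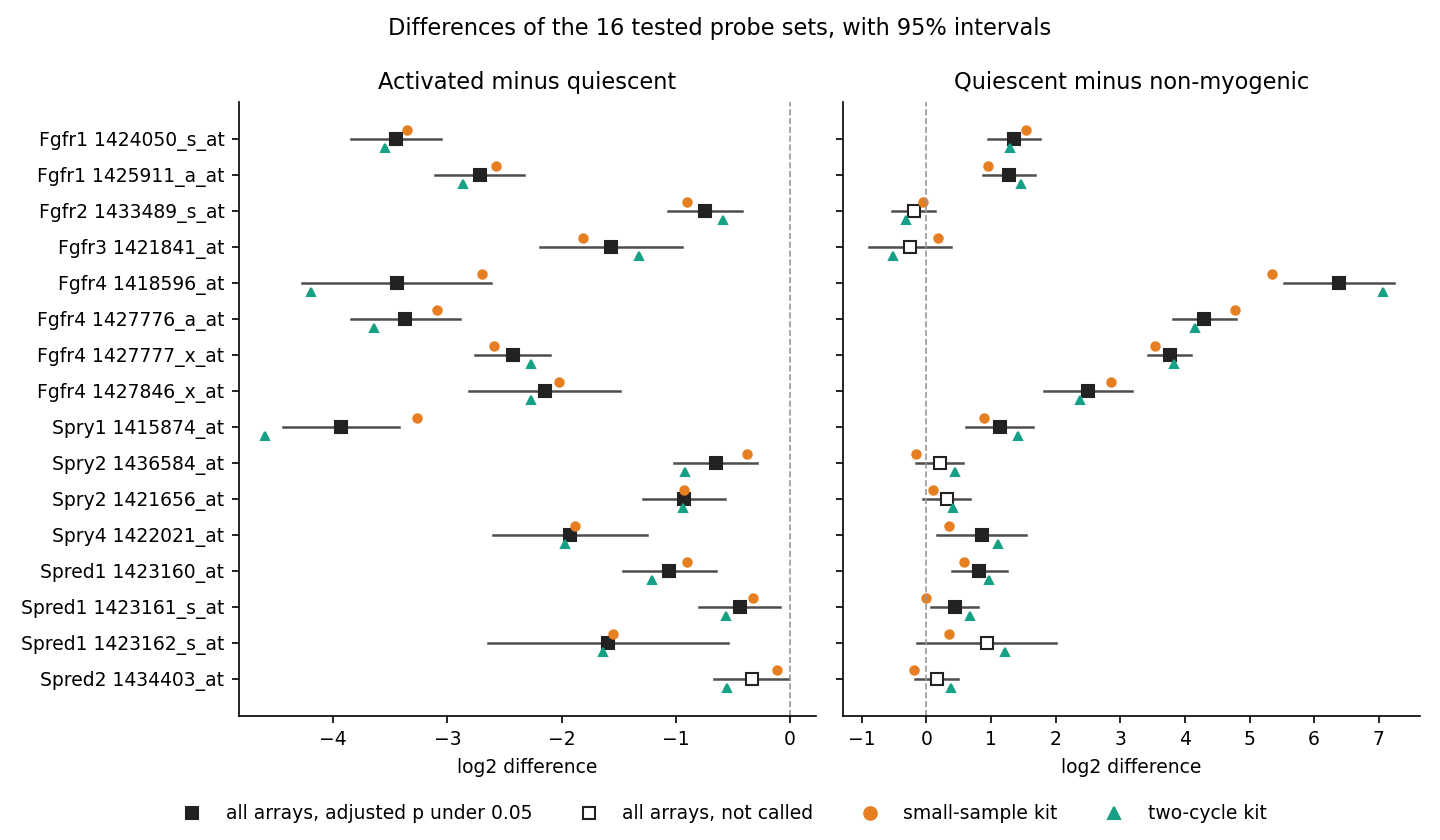
Differences in log2(signal + pseudocount) of the 16 tested probe sets, ASC minus QSC on the left and QSC minus NMC on the right; squares and bars are the fit on 12 arrays with its 95% interval, filled where the adjusted p was under 0.05, and circles (small-sample) and triangles (two-cycle) are fits on the arrays of 1 kit. On the left 15 of 16 squares are filled and all 16 lie below 0, although under median centring Spred2 and Spred1 1423161_s_at lie above it; on the right 10 are filled and the 4 of Fgfr4 reach from 2.51 to 6.38.

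Fgfr4 and Fgfr1 carried the largest differences among the receptors, and they differed in where else they were measured. Fgfr4 lies on chromosome 13 at positions 55152818 to 55168759 of GRCm38.p6. Its brightest probe set, 1418596_at, had signals of 827, 259.5, 284 and 279.6 in ASC arrays 1 to 4, of 4114, 2329, 6047 and 4828 in QSC arrays 1 to 4, and of 61.7, 22.3, 18.8 and 38.9 in NMC arrays 1 to 4. The groups did not overlap, with QSC highest, ASC in between and NMC lowest, and ASC array 1 stood well above the other ASC arrays. The log2 difference was -3.44 ± 0.38 (SE) between ASC and QSC, with an adjusted p of 3.48e-06, and 6.38 ± 0.39 between QSC and NMC, with an adjusted p of 2.93e-08. Fgfr4 also remained 2.94 ± 0.39 higher in ASC than in NMC (adjusted p 1.48e-05). Small-sample arrays alone gave -2.69 for ASC minus QSC and 5.35 for QSC minus NMC, and two-cycle arrays alone -4.19 and 7.06. As the mean of all Fgfr4 probe sets the difference between QSC and NMC was 3.42.

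The promoter window of Fgfr4 is shown because no other member differed as much between satellite cells and non-myogenic cells. It is the RefSeq sequence at chr13:55152568-55152867, plus strand, build GRCm38.p6, from 250 bases before the start site to 50 bases after it. Searched on both strands were CCGGAA (ETS core), TGANTCA (AP-1), CAGCTG (a myogenic E-box), TGGGAA (RBPJ), GCGTGGGCG (EGR) and GGGCGG (GC box), and capitals mark the matches, none of which overlap here.
Fgfr4: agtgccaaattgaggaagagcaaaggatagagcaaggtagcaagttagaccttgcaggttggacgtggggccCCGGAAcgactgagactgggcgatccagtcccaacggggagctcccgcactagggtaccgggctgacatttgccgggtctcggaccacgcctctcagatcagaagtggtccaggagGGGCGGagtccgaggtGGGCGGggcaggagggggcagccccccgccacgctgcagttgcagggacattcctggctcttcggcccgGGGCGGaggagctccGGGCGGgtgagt
The window held 1 ETS core, starting at base -178 from the start site, and 4 GC boxes, starting at -62, -46, 24 and 39. Of 32851 mouse promoter windows of the same length 14.9% held an ETS core and 35.7% a GC box. The E-box letters, found in 16.3% of windows, were not in this one.

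The other Fgfr4 probe sets ran the same way. Probe set 1427776_a_at had signals of 81.6, 40.2, 20.6 and 15.5 in ASC, of 597, 610.4, 385 and 404 in QSC, and of 7.92, 8.72, 8.18 and 7.89 in NMC. Its NMC arrays lay within 1 signal unit of each other, below the pseudocount of 14.7, and every ASC and QSC array lay above them. The log2 differences at this probe set were -3.37 ± 0.22 for ASC minus QSC and 4.30 ± 0.23 for QSC minus NMC (adjusted p 2.31e-08 and 6.09e-09). Both remaining tested sets have the suffix _x_at, by which the manufacturer marks probes that may also match other transcripts. The suffix _s_at of Fgfr1 1424050_s_at, Fgfr2 1433489_s_at, Spred1 1423161_s_at and Spred1 1423162_s_at marks probes that several transcripts may share. Probe sequences were not checked for either suffix. At 1427777_x_at the differences were -2.43 ± 0.15 and 3.77 ± 0.15, and at 1427846_x_at -2.15 ± 0.31 and 2.51 ± 0.31, although in the last the ASC and QSC arrays overlapped. The set 1427845_at averaged 2.29 in ASC, 7.86 in QSC and 5.55 in NMC and did not pass the filter. Between ASC and NMC the 4 tested sets differed by 2.94, 0.93, 1.34 and 0.36, and the last of these had an adjusted p of 0.323, or 0.0405 with a difference of 0.72 when ASC array 4 was left out.

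**Figure D2:**
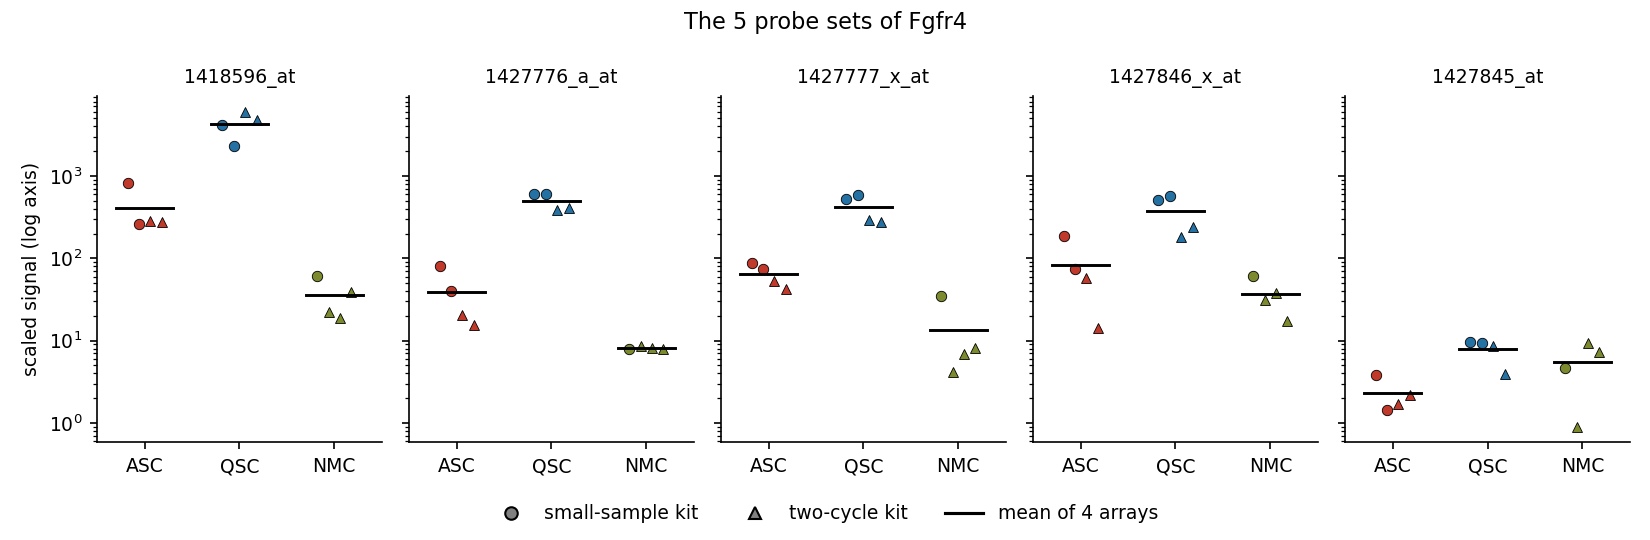
Scaled signal on a log axis of the 5 Fgfr4 probe sets in the 4 arrays of ASC, QSC and NMC; circles are small-sample and triangles two-cycle arrays, and bars are group means. In the 4 tested sets the QSC mean is highest and the NMC mean lowest, from 4329.6 against 35.4 in 1418596_at to 372 against 37.0 in 1427846_x_at, and the untested set 1427845_at stays under 10 on all 12 arrays.

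Fgfr1, the receptor with the widest expression of the family, is on chromosome 8 at positions 25518759 to 25575718 of GRCm38.p6. Probe set 1424050_s_at had signals of 211, 149, 95.2 and 102 in ASC, of 1603, 2373, 1069 and 1584 in QSC, and of 661, 543, 463 and 556 in NMC. No group overlapped another, and here NMC took the middle place that ASC had for Fgfr4. The log2 difference was -3.45 ± 0.18 for ASC minus QSC (adjusted p 3.39e-09; -3.36 and -3.54 on small-sample and on two-cycle arrays) and 1.36 ± 0.19 for QSC minus NMC (adjusted p 4.52e-05; 1.54 and 1.30). Fgfr1 was also lower in ASC than in NMC, with a log2 difference of -2.09 ± 0.19 (adjusted p 2.71e-07). The second set, 1425911_a_at, had signals of 56.7, 79.3, 47.9 and 42.1 in ASC, of 421, 533, 369 and 473 in QSC, and of 238, 114, 134 and 184 in NMC. It gave the same order of groups, with differences of -2.72 ± 0.18 and 1.28 ± 0.18 (adjusted p 2.56e-08 and 7.08e-05), the second of which had an adjusted p of 0.0806 within the small-sample kit, where NMC has 1 array.

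Fgfr2 and Fgfr3, receptors best known from epithelia and from cartilage and bone, were dim and shared another pattern, low in ASC with no difference called between QSC and NMC. Fgfr2 probe set 1433489_s_at had signals of 44.2, 29.3, 26.9 and 34.7 in ASC, of 93.2, 69.4, 49.2 and 57.7 in QSC, and of 83.5, 65.2, 75.6 and 67.8 in NMC. All ASC arrays lay below all others, and the QSC and NMC arrays overlapped. Fgfr2 differed by -0.75 ± 0.15 between ASC and QSC (adjusted p 0.000634; -0.90 and -0.59 on small-sample and on two-cycle arrays), but by -0.37 with an adjusted p of 0.0675 under median centring and -0.29 with an adjusted p of 0.118 under quantile normalization. Between QSC and NMC it differed by -0.19 (95% interval -0.53 to 0.14, adjusted p 0.313), or by -0.51 with an adjusted p of 0.0434 without scaling.

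Fgfr3 probe set 1421841_at had signals of 4.43, 32.6, 7.01 and 19.2 in ASC, of 103, 80.3, 59.5 and 47.3 in QSC, and of 78.2, 123, 78.9 and 55.7 in NMC. Again the ASC arrays were the 4 lowest while QSC and NMC overlapped. The log2 difference was -1.57 ± 0.29 between ASC and QSC (adjusted p 0.000281; -1.81 and -1.32 on small-sample and on two-cycle arrays) and -1.81 ± 0.29 between ASC and NMC (adjusted p 8.61e-05). That between QSC and NMC was -0.25 (95% interval -0.88 to 0.39, adjusted p 0.506). The second sets of both genes were below the filter, with 13.9 in ASC, 22.8 in QSC and 16.5 in NMC for Fgfr2 1420847_a_at and 6.70, 6.99 and 6.57 for Fgfr3 1425796_a_at. Fgfr2 lies on chromosome 7 and Fgfr3 on chromosome 5.

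**Figure D3:**
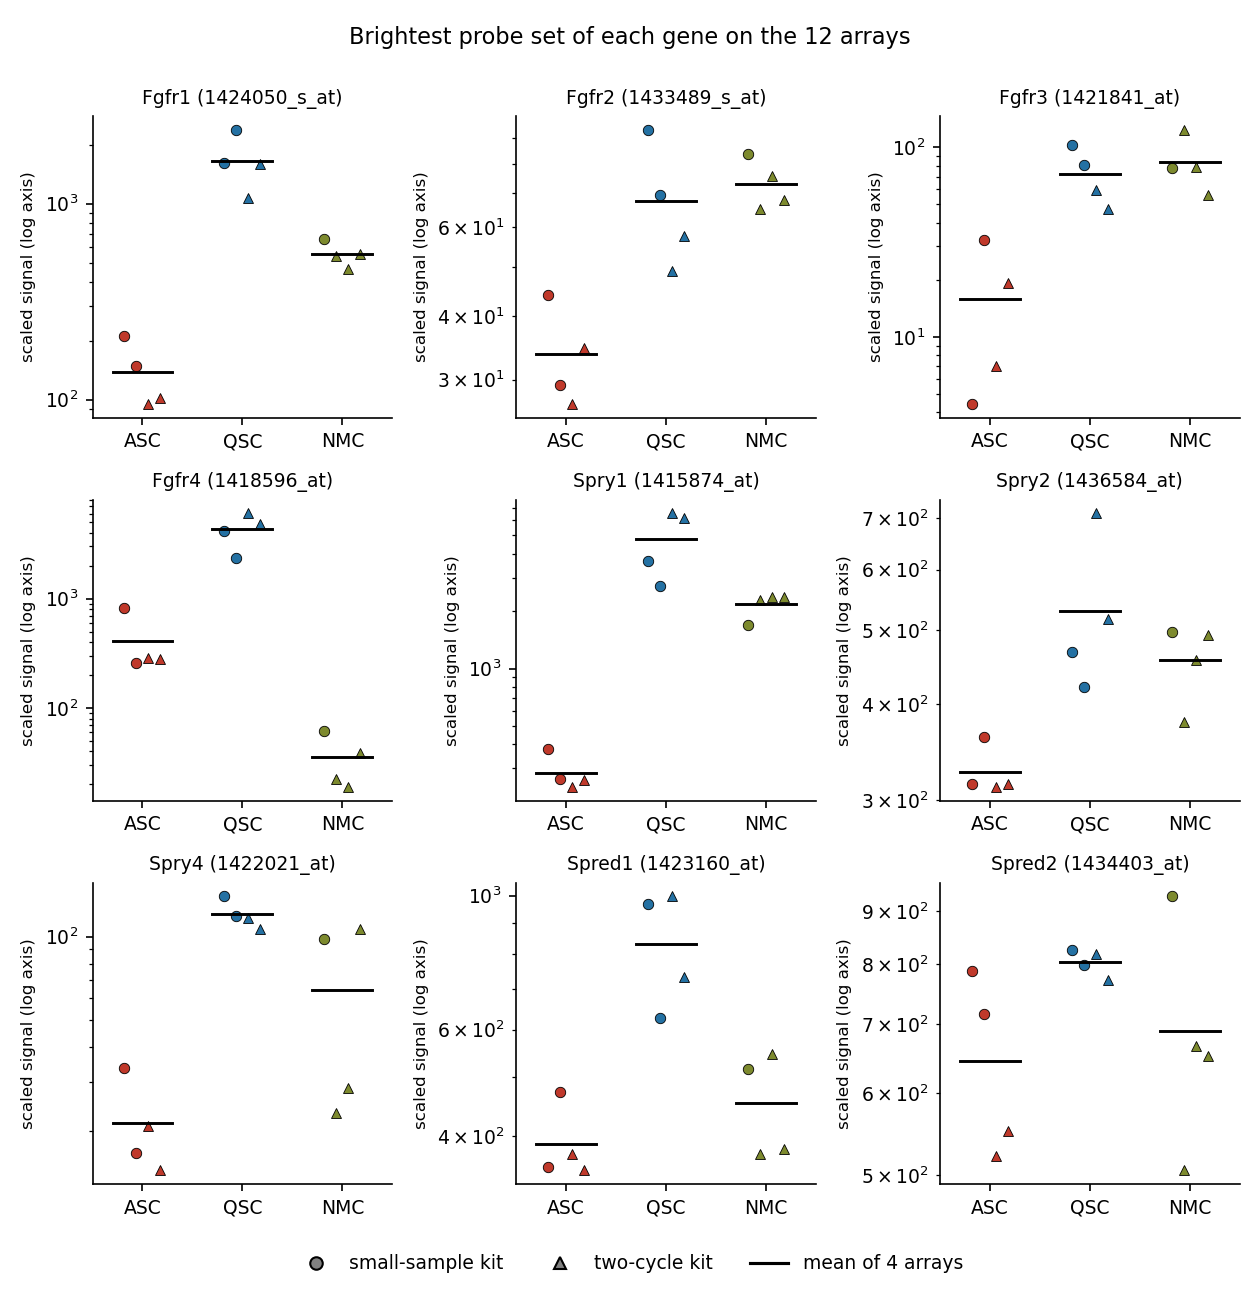
Scaled signal on log axes, 1 panel per gene with its own range, of the brightest probe set of each of the 9 genes in ASC, QSC and NMC; circles are small-sample and triangles two-cycle arrays, and bars are means of 4 arrays. QSC has the highest mean for Fgfr1, Fgfr4 and all 5 inhibitors, NMC for Fgfr2 and Fgfr3, and ASC the lowest for every gene except Fgfr4, where NMC is lowest.

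Spry1, which encodes an inhibitor induced by receptor tyrosine kinase signalling, had the largest difference between activated and quiescent cells of all 16 probe sets. It has a single probe set here, 1415874_at, and lies on chromosome 3 at positions 37639947 to 37644599 of GRCm38.p6. Its signals were 377, 262, 239 and 259.6 in ASC, 3692, 2703, 6541 and 6167 in QSC, and 1702, 2301, 2376 and 2387 in NMC. The groups were fully apart, with ASC lowest and NMC in between, and the two-cycle QSC arrays were higher than the small-sample ones. Spry1 fell by 3.93 ± 0.23 on the log2 scale in ASC against QSC (adjusted p 1.02e-08), with differences of -3.27 and -4.59 on small-sample and on two-cycle arrays. It was 1.13 ± 0.24 higher in QSC than in NMC (adjusted p 0.00149), with 0.89 and 1.43 within the kits, and the adjusted p was 0.122 within the small-sample kit. Between ASC and NMC the difference was -2.80 ± 0.24 (adjusted p 1.83e-07).

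The RefSeq promoter window of Spry1, at chr3:37639697-37639996, plus strand, build GRCm38.p6, is shown because Spry1 differed more between ASC and QSC than any other of the 9 genes. It was searched for the same 6 motifs, with matches in capitals.
Spry1: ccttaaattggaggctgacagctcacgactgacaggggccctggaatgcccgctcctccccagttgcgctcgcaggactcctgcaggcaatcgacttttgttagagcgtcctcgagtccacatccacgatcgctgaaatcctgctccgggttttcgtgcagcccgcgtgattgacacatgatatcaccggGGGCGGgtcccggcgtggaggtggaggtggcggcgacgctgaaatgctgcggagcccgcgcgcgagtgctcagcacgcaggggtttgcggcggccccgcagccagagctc
It held 1 GC box, starting at base -60 from the start site. The letters of the other 5 motifs were not in this window. Among all windows 7.81% held the AP-1 letters, 25.6% the RBPJ letters and 0.612% the EGR letters.

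Spry2 and Spry4, the other inhibitors of this family on the array, differed less. Spry2 probe set 1436584_at had signals of 315, 363, 312 and 314 in ASC, of 468, 421, 711 and 518 in QSC, and of 497, 379.5, 457 and 493 in NMC. The ASC arrays lay in a narrow range below all others, while QSC and NMC overlapped. The difference was -0.65 ± 0.17 between ASC and QSC (adjusted p 0.00352), -0.38 with an adjusted p of 0.189 on small-sample arrays and -0.92 on two-cycle arrays, and -0.35 (adjusted p 0.162) without scaling and -0.20 (adjusted p 0.308) under median centring. The dimmer Spry2 set 1421656_at, with means of 33.0 in ASC, 76.3 in QSC and 52.7 in NMC, differed by -0.93 ± 0.17 (adjusted p 0.000243; -0.93 within either kit). Neither set was called between QSC and NMC. Their differences there were 0.21 (95% interval -0.16 to 0.58) and 0.31 (-0.05 to 0.68), and the second had an adjusted p of 0.0468 without QSC array 1.

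For Spry4, probe set 1422021_at had signals of 33.7, 16.7, 20.9 and 14.4 in ASC, of 140, 119, 117 and 107 in QSC, and of 98.2, 23.2, 28.5 and 107 in NMC. The QSC arrays were close together and above all ASC arrays, and the NMC arrays split into a low and a high pair that does not follow the kit. Spry4 fell by 1.93 ± 0.31 on the log2 scale in ASC against QSC (adjusted p 0.000100; -1.88 and -1.97 on small-sample and on two-cycle arrays). Its difference between QSC and NMC, 0.86 ± 0.32 with an adjusted p of 0.0370, rested on overlapping groups. That call was lost within either kit (0.35 and 1.11, adjusted p 0.515 and 0.0532) and without QSC array 1, 3 or 4 or NMC array 2 or 3, with adjusted p up to 0.103. The second Spry4 set, 1422020_at, was below the filter, with means of 5.13 in ASC, 14.7 in QSC and 7.13 in NMC.

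Spred1 and Spred2 encode membrane-associated inhibitors that act on Ras and Raf. Spred1 was lower in ASC than in QSC at all 3 of its probe sets, although under median centring the value of 1423161_s_at was 0.01, and Spred2 was the one gene of the 9 with no call in any comparison. Spred1 probe set 1423160_at had signals of 354, 473, 374 and 351 in ASC, of 969, 627, 997 and 732 in QSC, and of 516, 374, 546 and 380.3 in NMC. The QSC arrays lay above all others, and ASC and NMC overlapped. The differences were -1.06 ± 0.19 between ASC and QSC (adjusted p 0.000249; -0.90 and -1.21 on small-sample and on two-cycle arrays) and 0.82 ± 0.19 between QSC and NMC (adjusted p 0.00318; 0.58 and 0.98, with an adjusted p of 0.298 within the small-sample kit and 0.124 without scaling).

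Both other Spred1 sets were less firm. Set 1423161_s_at differed by -0.44 ± 0.17 between ASC and QSC (adjusted p 0.0300), a call lost without QSC array 3 or 4 or ASC array 1 or 4 (adjusted p up to 0.100) and under median centring, where the value was 0.01. Its difference between QSC and NMC was 0.44 ± 0.17 (adjusted p 0.0422), and that call was lost when any 1 of 8 of the 12 arrays was left out, namely QSC 1, 3 or 4, ASC 1 or 3, or NMC 2, 3 or 4, with adjusted p up to 0.158. Set 1423162_s_at varied most within groups, with signals of 31.2, 76.2, 85.0 and 24.6 in ASC, of 84.4, 344, 96.9 and 324 in QSC, and of 133, 52.0, 139 and 42.0 in NMC. Its groups overlapped throughout, its difference between ASC and QSC was -1.59 ± 0.49 (adjusted p 0.0105), and that between QSC and NMC was 0.94 ± 0.50 (adjusted p 0.133, or 0.0410 with 1.27 without QSC array 1).

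Spred2 probe set 1434403_at had signals of 787, 716, 521 and 551 in ASC, of 826, 798, 818 and 773 in QSC, and of 930.4, 505, 667 and 652 in NMC. The QSC arrays were nearly equal, and the arrays of both other groups overlapped them. The difference between ASC and QSC was -0.33 (95% interval -0.66 to -0.01, adjusted p 0.0665), with -0.11 on small-sample arrays and -0.56 (adjusted p 0.0242) on two-cycle arrays, and the adjusted p was 0.0389 without QSC array 2. Between QSC and NMC it was 0.16 (95% interval -0.17 to 0.50). The dim set 1423001_at, with 26.6 in ASC, 44.0 in QSC and 27.0 in NMC, did not pass the filter.

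Between activated and non-myogenic cells, 3 of the 16 probe sets were higher in ASC, all of Fgfr4, where 34.1% of all probe sets were higher, and 8 were lower, where 35.9% of all were. Under median centring 5 were higher and 5 lower. The 8 belong to Fgfr1, Fgfr2, Fgfr3, Spry1, Spry2 and Spry4. Fgfr2 differed by -0.94 ± 0.15 (adjusted p 9.92e-05). For Spry2 1436584_at the difference was -0.44 ± 0.17 (adjusted p 0.0322), a call lost without ASC array 1, 3 or 4 or NMC array 1, 3 or 4 (adjusted p up to 0.151), and for Spry4 it was -1.07 ± 0.32 (adjusted p 0.00874, or 0.0612 without NMC array 1). Under median centring these became -0.03 (adjusted p 0.880) and -0.70 (adjusted p 0.0807), and Spry4 had an adjusted p of 0.0658 under quantile normalization. The call of the second Spry2 set, 1421656_at (-0.61, adjusted p 0.00554), was lost under median centring (-0.20), under quantile normalization (-0.19) and with no term for the kit (-0.49, adjusted p 0.0818). The Spred1 and Spred2 sets were not called, and at the brightest of them, Spred1 1423160_at and Spred2 1434403_at, the 95% intervals ran from -0.65 to 0.19 and from -0.51 to 0.17.

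The order of the groups differed between genes. Fgfr1 and Spry1 were highest in QSC and lowest in ASC with all 3 steps called, and Spry4 had the same order with a step between QSC and NMC that single arrays decided. Fgfr4 was highest in QSC and lowest in NMC with all 3 steps called at 3 of its 4 tested sets. For Fgfr2, Fgfr3 and Spry2 1436584_at the ASC arrays were lowest and QSC and NMC did not differ beyond their spread, for Spred1 1423160_at QSC was highest and ASC and NMC did not differ beyond theirs. At the dimmer Spry2 set ASC array 1, at 49.2, lay above 3 NMC arrays, and for Spred2 none of the 3 steps was called.

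How far the members differed from each other in these responses was set against the spread between arrays, with the difference in log2 signal between the brightest probe sets of a pair of genes taken on each array. All pairs within the receptors and within the inhibitors were compared in both comparisons with QSC, which makes 32 two-sided exact permutation tests of 4 against 4 arrays. In 18 of the 32 the arrays separated completely and p was 0.0286, the smallest this design allows, but after Benjamini-Hochberg adjustment over the 32 the smallest value was 0.0508, so 0 passed. In 28 of the 32 the difference had the same sign within both kits. For the receptors, Fgfr1 and Fgfr4 differed in their ASC minus QSC changes by -0.01 on the log2 scale (exact p 1, with -0.66 and 0.65 on small-sample and on two-cycle arrays), while their QSC minus NMC differences were apart by -4.93 (exact p 0.0286). The fall of Fgfr1 in ASC exceeded that of Fgfr2, with a difference of -2.70, and that of Fgfr3, with -1.88 (exact p 0.0286 each).

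Among the inhibitors, the ASC minus QSC change of Spry1 was more negative than that of Spry2 by -3.28, than that of Spry4 by -2.01, than that of Spred1 by -2.88 and than that of Spred2 by -3.60, each with an exact p of 0.0286. Spry2 and Spred2 were apart by -0.32 (exact p 0.2). In the QSC minus NMC comparison the difference between Spry1 and Spry4 was 0.07 (exact p 0.857) and that between Spry1 and Spry2 was 0.85 (exact p 0.0286). None of these separations passed the adjustment. With p no smaller than 0.0286, passing depended on how many pairs reached that value and not on the size of a gap. The pair tests had no term for the kit, and the pseudocount understates the changes of dim genes such as Fgfr3 and Spry4.

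For the 6 genes whose brightest set was called with at least a 2-fold difference in a comparison with QSC, the 3 genes with the most similar pattern over the 12 arrays were found among 7960 others, as the smallest root mean square difference of log2 values centred on each probe set's mean. The 12 points share libraries, kits and groups, so the values are descriptions. They were not divided by the gene's own SD over the arrays, which was 2.69 for Fgfr4 and 0.51 for Spred1. Values of different member genes are therefore not comparable. For Fgfr4 they were Myf5 (0.80), Pax7 (0.81) and Hs6st2 (0.91), of which Myf5 and Pax7 are transcription factors that define satellite cells, and for Fgfr1 Adamts10 (0.26), Capn6 (0.32) and Ncald (0.33). Spry1 ran closest to Klf15 (0.28), Egr1 (0.29) and Lmo2 (0.31), and Spry4 to Plk3 (0.30), Mt1 (0.33) and Nr1d1 (0.36). For Fgfr3 the nearest were H2ac19 (0.32), Ptprs (0.35) and Oaz2 (0.36), and for Spred1 Rsbn1 (0.19), Ahcyl2 (0.19) and Tank (0.19).

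The genes around the receptors were described with 5 lists, using the brightest tested probe set of each gene. Over all 7961 genes tested 31.6% were higher and 37.9% lower in ASC than in QSC, and 25.9% were higher and 26.3% lower in QSC than in NMC. The median log2 differences of all genes were -0.11 and 0.03. Of 22 genes listed as FGF ligands 7 passed the filter. Fgf2, which encodes the growth factor given to the ASC cultures, did not, with means of 8.3 in ASC, 10.6 in QSC and 12.1 in NMC. Among the 7, Fgf11 and Fgf13 belong to a subgroup that does not act on the receptors. They are counted with the ligands below, so the counts and medians are not of receptor ligands alone.

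Among the 7 ligands 3 were lower and 0 higher in ASC than in QSC by limma, also at an unadjusted p under 0.05 (median -0.33), namely Fgf4 (-1.22 ± 0.18), Fgf1 (-1.09 ± 0.19) and Fgf13 (-0.83 ± 0.27, adjusted p 0.0132, or 0.386 with -0.38 within the small-sample kit and 0.218 under median centring). Fgf9, next in the ranking, differed by -0.33 with an adjusted p of 0.191. Fgf1, Fgf4, Fgf7, Fgf9 and Fgf18 averaged 4.7 to 30.4 in ASC, below the filter level, and all of these but Fgf4 were below it in QSC too. In NMC Fgf4, Fgf11 and Fgf13 averaged 37.0 to 41.3, likewise below it. These genes passed through the groups where they were higher, so their directions and the medians are not independent of the filter. Between QSC and NMC 3 were higher in QSC and 4 lower (median -0.84). Those with the smallest adjusted p were Fgf7, a ligand from mesenchymal cells that acts on epithelia (-1.90 ± 0.14), Fgf1 (-2.60 ± 0.20) and Fgf18, a ligand of skeletal development (-2.87 ± 0.26), all lower in QSC, with means of 24.0, 43.1 and 8.12 in QSC against 126, 357 and 158 in NMC. Higher in QSC were Fgf13, which encodes an intracellular FGF homologue that does not act on the receptors (2.80 ± 0.27), Fgf11 of the same subgroup (0.99 ± 0.17) and Fgf4 (0.81 ± 0.18). Within the small-sample kit, with 1 NMC array, the last of these had a difference of 0.39 (adjusted p 0.337).

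Of 12 genes for heparan sulphate proteoglycans and other co-receptors of FGF, with the decoy receptor gene Fgfrl1, 9 were tested, and 5 were higher and 3 lower in ASC than in QSC (median 0.39). With no term for the kit, within either kit alone or by the mean of probe sets 3 were higher. The syndecan genes moved apart. Sdc4, also 1 of the satellite cell markers used above, had means of 313 ± 139 in ASC, 2904 ± 1597 in QSC and 214 ± 132 in NMC (SD, n = 4 each). Its differences were -3.09 ± 0.20 for ASC minus QSC and 3.39 ± 0.20 for QSC minus NMC. Sdc3 and Sdc1 were instead higher in ASC by 1.67 ± 0.15 and 1.45 ± 0.14, although the mean of the Sdc3 probe sets differed by 0.26 only (adjusted p 0.132). At its brightest set Sdc3 was lower in QSC than in NMC (-0.61 ± 0.16, adjusted p 0.00579), the reverse of Sdc4. Gpc1, which encodes a glypican, was higher in ASC than in QSC (1.14 ± 0.16) and higher in QSC than in NMC (1.19 ± 0.17), while Gpc3 (-1.22 ± 0.23) and Gpc4 (-1.30 ± 0.27) were lower in ASC than in QSC. On small-sample arrays alone the calls of Gpc3 (-0.81, adjusted p 0.0992) and Gpc4 (-0.61, adjusted p 0.138) were lost. Of the 9, 2 were higher in QSC than in NMC and 4 were lower (median -0.26), with Gpc3 at -4.06 ± 0.24 and Sdc2 at -1.62 ± 0.14.

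Of 24 genes of receptor adaptors and the Ras to ERK cascade 13 were tested. Between ASC and QSC 3 were higher and 7 lower (median -0.56), and under median centring or without scaling 5 were higher and 4 lower. The docking protein gene Gab1 had a mean of 141 ± 42.5 in ASC, 1358 ± 281 in QSC and 864 ± 146 in NMC, a difference of -3.15 ± 0.21 between ASC and QSC. The scaffold gene Ksr1 and the Ras-related gene Rras were lower in ASC as well (-2.02 ± 0.16 and -1.85 ± 0.18). The adaptor gene Grb2 (1.47 ± 0.13), the Ras gene Nras (1.85 ± 0.19) and the ERK kinase gene Map2k2 (1.32 ± 0.18) were higher in ASC. In QSC against NMC 3 were higher and 2 lower (median 0.10). Rras was lower there (-1.07 ± 0.18) and Ksr1 higher (0.80 ± 0.16, or 0.43 with an adjusted p of 0.0981 without scaling). The calls of Gab1 (0.64 ± 0.22, adjusted p 0.0233) and Nras (-0.53 ± 0.19, adjusted p 0.0335) were lost, among other settings, without QSC array 3 or NMC array 2.

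Other inhibitors of receptor tyrosine kinase signalling moved in both directions. Of 20 listed genes 13 were tested, and 3 were higher and 6 lower in ASC than in QSC (median -0.22), or 5 and 3 under median centring. Lrig1, an inhibitor of growth factor receptors at the membrane, had a mean of 185 ± 94.9 in ASC, 1849 ± 479 in QSC and 462 ± 131 in NMC, with differences of -3.31 ± 0.17 for ASC minus QSC and 1.77 ± 0.18 for QSC minus NMC. Errfi1, a feedback inhibitor of the EGF receptor family, was also lower in ASC than in QSC (-1.61 ± 0.22) and higher in QSC than in NMC (1.41 ± 0.23), and the caveolin gene Cav1 was lower in ASC (-1.29 ± 0.20). The docking protein gene Dok1 ran the other way in both comparisons (1.31 ± 0.18 and -1.36 ± 0.18), and the Ras GTPase activator gene Rasa1 and Socs6 were higher in ASC (1.03 ± 0.20 and 0.61 ± 0.14). In QSC against NMC 6 of the 13 were higher and 2 lower (median 0.47), the lower ones being Dok1 and Dab2ip (-0.85 ± 0.17).

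Of the genes that are known to respond to ERK, most of those tested were lower in the cultured cells. Of 15 listed genes 9 were tested, and 7 were lower and 2 higher in ASC than in QSC (median -1.56). Etv4, Etv5 and Egr3 were measured but lay below the signal filter, which takes the mean of all 12 arrays. Etv4 averaged 48.9 in ASC, 4.64 in QSC and 7.55 in NMC, with no overlap of ASC with the other groups. Etv5 averaged 27.3, 36.4 and 19.4, and Egr3 31.1, 81.0 and 26.3. Egr2, Ier3, Egr1 and Fos, immediate early genes, fell by 6.00 ± 0.46, by 3.94 ± 0.34, by 3.67 ± 0.35 and by 5.14 ± 0.59 on the log2 scale. Fos stood at 1421 in ASC array 1, against 147 to 191 on the other ASC arrays. Fosl1, which encodes a Fos family member, and Ccnd1, which encodes cyclin D1, were higher in ASC by 2.15 ± 0.36 and 1.02 ± 0.27. The QSC signals of Fosl1 split by kit, with 404 and 372 on small-sample arrays and 41.5 and 53.0 on two-cycle arrays. Over the alternatives its ASC minus QSC difference ran from 0.97 to 3.32. In QSC against NMC 4 were higher and 0 lower by limma, also at an unadjusted p under 0.05 (median 0.69), among them Egr2 (2.64 ± 0.47), Fosl1 (2.09 ± 0.37) and Ccnd1 (1.53 ± 0.28). The QSC and NMC groups were both measured directly after the sort, and ASC after culture. On small-sample arrays alone, where NMC has 1 array, the QSC against NMC calls of Egr2 and Ccnd1 were lost (1.27 and 1.36, adjusted p 0.103 and 0.177), as were those of Fgf11, Gpc1, Rras, Ksr1, Errfi1 and Dab2ip (adjusted p 0.0586 to 0.273). The call of Ccnd1 between ASC and QSC was lost there too (0.99, adjusted p 0.143), and that of Socs6 on two-cycle arrays alone (0.41, adjusted p 0.0512).

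Between ASC and NMC, where 33.8% of all genes were higher and 38.1% lower, 2 of the 7 tested ligands were higher in ASC and 4 lower. Of the co-receptors 3 were higher and 4 lower, or 5 higher under median centring, of the adaptor and cascade genes 5 and 5, of the other inhibitors 4 and 4, and of the ERK-responsive genes 2 and 5.

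**Figure D4:**
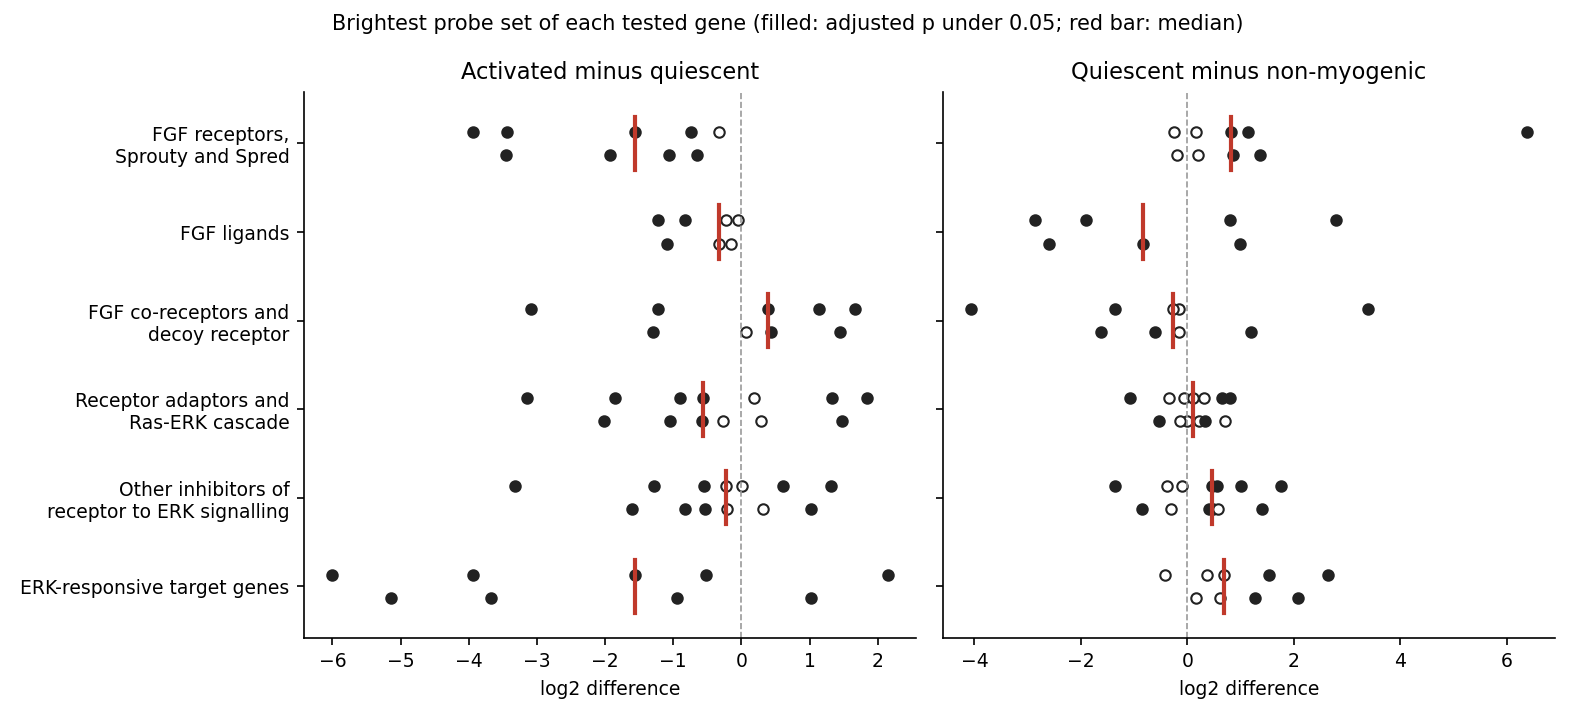
Differences in log2(signal + pseudocount) of the brightest tested probe set of each gene, ASC minus QSC on the left and QSC minus NMC on the right, for the 9 member genes and 5 lists around them; filled points had an adjusted p under 0.05, red bars are medians. On the left the members and the ERK-responsive genes have medians of -1.57 and -1.56, and the co-receptors have 0.39; on the right the points of Fgfr4 at 6.38 and Gpc3 at -4.06 lie farthest out.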

How the data were processed

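Total RNA from the sorted or cultured cells was purified on columns, labelled and hybridised, per the labels' protocols, with 1 Affymetrix Mouse 430A array for each sample. The authors deposited 1 linear intensity for each probe set and array. MAS5 is named for it in the submitters' processing notes, with settings not given in the sources used here. Detection calls did not enter, so a dim probe set has no measured background, and precision is limited by the number of arrays.

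Each of the 12 arrays was scaled to a 2% trimmed mean of 235, the median over arrays. Values became log2(signal + 14.7), with 1/16 of that mean as pseudocount, so differences are on that scale and understate those of dim probe sets. Of 22690 probe sets, 691 had several genes, 1555 had none and 64 were controls, and all of these stayed out of the tests. The other 20380 have 1 gene in the platform annotation, 20351 of them with a symbol checked by Entrez ID. A mean signal of 47.0 or more, 0.2 of the trimmed mean, was required, and 12072 probe sets met it. limma 3.58.1 in R 4.3.3 (lmFit, eBayes) was fitted to all 12 arrays with terms for group and kit, leaving 8 residual degrees of freedom. P-values were adjusted by Benjamini-Hochberg over the 12072, with a threshold of 0.05. Tested on simulated data for ASC against QSC with 12072 probe sets, 200 of them changed, the fit called 71% of 2-fold and 98% of 4-fold differences and 4 unchanged probe sets. The simulation had independent noise and no scaling step. In the data 30.7% of probe sets were called higher and 37.6% lower, so the simulated rates may not hold for them.

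The members and lists were chosen with earlier results of these data known. All member probe sets are named. From each list the names are up to 4 tested genes with the smallest adjusted p in ASC against QSC, up to 3 in QSC against NMC, and called genes against the direction of most. For member genes called at 2-fold or more in a comparison with QSC the 3 genes of nearest pattern are named. Markers of 9 cell types were used, those of satellite cells, myoblasts, endothelium and fibroblasts in the report and the others in the closing section. Alternatives were fits with no kit term or on 1 kit, other pseudocounts, signal filters and scalings, 1 value per gene, array weights, trended and robust variances, fits to the 2 groups compared, a replicate block, and fits that left out 1 array. Fits without the 2 small-sample arrays of QSC or of ASC were chosen after seeing the data. Promoter windows and gene positions are from RefSeq, build GRCm38.p6, and the windows of 7 genes were searched. Python 3.11.15 and matplotlib 3.10.9 drew the figures.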

Additional observations from a re-analysis of the deposited data

Results flagged for a closer look

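In 9 of the 63 groups of 4 arrays that the 21 probe sets give, 1 array lay far from the other 3, its gap to the nearest divided by the group's range being above Dixon's 95% critical value for 4 samples. Chance flags about 1 in 20 such groups.

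Of these, 7 were array 1 of ASC or NMC, both labelled with the small-sample kit. In ASC array 1, Fgfr4 1418596_at stood at 827, against 259.5 to 284 on the other ASC arrays, and Spry1 1415874_at at 377, against 239 to 262. The ASC minus QSC difference of Fgfr4 ran from -3.84 to -3.19 over the 12 fits with 1 array left out, and that of Spry1 from -4.16 to -3.78, so both calls held without this array.

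In NMC array 1, Spry1 1415874_at stood at 1702, against 2301 to 2387 on the other NMC arrays, Spry2 1421656_at at 79.8, against 43.0 to 44.4, and Fgfr4 1427777_x_at at 34.7, against 4.21 to 8.08. This is the single NMC array of its kit, so its kit and the array cannot be told apart.

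Fgfr2 1420847_a_at, which did not pass the signal filter, had 1 array apart in each group, with 23.7 in ASC array 1 against 9.93 to 11.1 on the others, 5.33 in QSC array 4 against 26.2 to 29.9, and 28.6 in NMC array 1 against 11.5 to 13.3. Spry2 1436584_at stood at 363 in ASC array 2, against 312 to 315.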

How the results depend on the processing

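Over the alternatives, single probe sets kept direction and call in 2702 results, lost the call in 97, gained one in 14 and changed sign in 25; counts of called members stayed within 1.5 times in 168 and moved further in 12. With 1 value per gene there are fewer values to call. In ASC against QSC 15 member probe sets were lower, or 8 genes by the brightest set and 6 by the mean of sets. In QSC against NMC 10 were higher, 5 on small-sample arrays alone, 5 by the brightest set and 4 by the mean, and 0 were lower, or 1 without scaling. In ASC against NMC 3 were higher, 5 under median centring and 1 by either value per gene, and 8 were lower, 4 with the signal filter at 0.5 of the trimmed mean, 5 under median centring and 3 by the mean. With 1 array left out these counts ran from 14 to 16 lower and 0 to 0 higher, from 8 to 10 higher and 0 to 0 lower, and from 3 to 4 higher and 6 to 8 lower.

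Signs turned as follows, and the cause was not tested. Median centring, which moved the median of all probe sets from -0.12 to 0.32 in ASC against QSC and from -0.04 to 0.38 in ASC against NMC, gave Spred1 1423161_s_at 0.0062 and Spred2 0.12 in the first and Spred1 1423160_at 0.18 and Spred2 0.24 in the second. Small-sample arrays alone gave, in QSC against NMC, 0.19 for Fgfr3, -0.16 for Spry2 1436584_at, -0.0052 for Spred1 1423161_s_at and -0.19 for Spred2. Unscaled values, with a median of -0.29, gave -0.18 for Spry2 1436584_at, -0.0109 for Spry2 1421656_at and -0.23 for Spred2. In ASC against NMC, Spred1 1423161_s_at went to -0.33 on small-sample arrays, -0.0025 with a pseudocount of 1/4, -0.08 unscaled, -0.0363 both with only the 2 groups compared and without the small-sample QSC arrays, and from -0.084 to 0.1838 with 1 array left out. In ASC against QSC, Fgf9 went to 0.0329 on two-cycle arrays, 0.17 under quantile normalization and 0.0534 without the small-sample QSC arrays. Of the 32 pairs of members 0 passed under each of 3 alternatives.

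Counts of called genes in the 5 lists stayed within 1.5 times in 851 results and moved further in 49. Small-sample arrays alone left 1 higher ligand of 3 in QSC against NMC, 1 of 2 co-receptors, 0 of 3 adaptor and cascade genes, 1 of 6 other inhibitors and 1 of 4 ERK-responsive genes, which were 7 on two-cycle arrays. They left 1 lower co-receptor of 3, 4 lower adaptor and cascade genes of 7 and 3 lower other inhibitors of 6 in ASC against QSC, where both lower counts of the last 2 lists were also 4 and 3 unscaled and under median centring. Unscaled, QSC against NMC had 0 higher and 4 lower adaptor and cascade genes (main values 3 and 2), 3 higher and 4 lower other inhibitors (6 and 2) and 1 lower ERK-responsive gene (0). Higher adaptor and cascade genes were 1 without NMC array 2, and lower ones 1 without QSC array 1, 3 or 4 or NMC array 2 or 4. With a signal filter of 0.5, 1 ligand was higher and 1 lower in QSC than in NMC.

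The replicate numbers come from the sample titles, which do not say that a number marks a shared animal or day. Correlations of same-numbered arrays' deviations ran from 0.0246 to 0.401 in 10 pairs of 1 kit and from -0.387 to -0.178 in 2 pairs of different kits, and 4 of 12 arrays matched their own number best. With the number as a block, 3 co-receptors were higher in ASC than in QSC, against 5 without it, and 14 sets were lower in ASC than in QSC, 10 higher in QSC than in NMC, and 3 higher and 7 lower in ASC than in NMC. The lost member calls were Spred1 1423161_s_at (adjusted p 0.0715) and Spry2 1421656_at (adjusted p 0.0552). Probe sets near the pseudocount of 14.7 have differences that the scale understates, and the single small-sample NMC array limits what that kit alone can show.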

Other observations

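Markers of other muscle cell types were lower in ASC than in QSC for most of the tested genes. Of 7 mural cell markers 5 were lower and 1, Cspg4, higher, and their summed signals were 2201 to 4791 in ASC, 4362 to 7405 in QSC and 9936 to 18446 in NMC. Of 4 measured tenocyte markers all 3 tested were lower, with sums of 33.2 to 113 in ASC, 451 to 1062 in QSC and 15141 to 29646 in NMC. Both measured glial markers were lower, with sums of 47.7 to 69.9 in ASC, 295 to 1369.6 in QSC and 654 to 978 in NMC. Of 7 leukocyte markers 3 were tested and 2 were lower, with sums of 154 to 215 in ASC, 181 to 632 in QSC and 273 to 519 in NMC, and Ptprc, which encodes CD45, averaged 4.59 in ASC, 27.8 in QSC and 27.5 in NMC. Of 7 myofibre markers 3 were lower in ASC than in QSC, and their sums of 479 to 11236 in ASC, 2035 to 8111 in QSC and 9780 to 30583 in NMC overlapped. On the small-sample ASC arrays 1 and 2, Acta1 stood at 4702 and 3670 and Tnnc2 at 2118 and 2802. On the two-cycle ASC arrays 3 and 4, Acta1 stood at 289 and 331 and Tnnc2 at 116 and 98.6. Myh4 averaged 2.20 in ASC. Kit and cell state cannot be told apart within ASC. The part of these cells in the members' differences was not tested.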
